A study of Rattus norvegicus with 20 samples.

Results

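Blocks of subcortical tissue from the forebrain were compared with blocks of injured cervical cord taken from the same rats. All 20 libraries of the series entered the comparison: 8 from regions 1 and 2, which the labels call subcortical white matter, and 12 from regions 3, 4 and 5, which are spinal cord. The animals were 4 adult female wild-type Long-Evans rats of about 6 to 8 months. Every rat received a one-sided contusion at cervical level 4 (a displacement of 0.7 mm) and, 2 weeks later, electrodes implanted in the opposite motor cortex, so no uninjured or unimplanted animal was measured. In 2 animals a chosen electrode of the array was stimulated for 5 days, also described as 1 week, starting 3 weeks after injury. Pulses came 5 hours a day at an average of 10 Hz and 80% of the movement threshold, 5 minutes on and 2 minutes off. The 2 control animals were connected without current. Region 1 was a block of about 5 mm3 beneath the array and region 2 the same place in the other hemisphere. Regions 3, 4 and 5 lay rostral to the lesion, at its centre and caudal to it, and held both gray and white matter.

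Forebrain and spinal cord use the same classes of transmitter with different molecular parts. Cortical projection neurons load glutamate into vesicles mainly with the transporter VGLUT1, encoded by Slc17a7, while spinal excitatory neurons mainly use VGLUT2, encoded by Slc17a6, and fast inhibition in the cord uses glycine beside GABA. White matter consists of axons, the oligodendrocytes that wrap them in myelin, astrocytes and microglia, and it holds few neuron cell bodies.

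The label of regions 1 and 2 was first set against defining genes, and the data went against a reading as white matter without cortex. Genes that neuron cell bodies of the cortex express were high in every block, and 24 of 26 myelin and mature oligodendrocyte genes were lower there than in the cord, with a median log2 difference of -2.16. In 22 of the 26, all 8 blocks lay below all 12 cord libraries, as in 16.8% of all genes tested. Mbp, which encodes myelin basic protein, had a lowest, median and highest value of 385, 695 and 1484 FPKM in the 8 blocks and 3836, 4609 and 5813 FPKM in the 12 cord libraries. Regions 1 and 2 are therefore called subcortical blocks here, without a claim about which tissue they held. Hox genes, the transcription factors that pattern the hindbrain and cord, were expressed in the cord libraries. Of 34 such genes listed, 22 passed the filter described below, 20 of them at 0.1 in every block, so that these passed through the cord alone and had to be lower, and no block exceeded 0.122 FPKM for any of the 22.

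Expression was given as FPKM, fragments scaled by transcript length and sequencing depth, with 0.1 as the lowest value listed, so a gene at 0.1 has no measured level. The number of reads behind a value is not kept, so precision rests on the spread between animals. Some libraries stood apart. In stimulated animal 2, 887 genes of region 1 and 1375 genes of region 2 were over 2-fold above all 3 other libraries of the region, against 14 to 74 genes in the other 18 libraries. Region 1 of stimulated animal 1 was high in striatal genes such as Drd2 (4.05 FPKM, against 0.341 to 0.564 in the other 7 blocks), and region 3 of control animal 2 was high in Slc17a7 (11.8 FPKM, against at most 2.78 in the other cord libraries). Where leaving out 1 of these libraries, or stimulated animal 2 as a whole, ended a call or moved a count by over 1.5 times, the value without it is given.

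For each animal the mean log2 FPKM of its 2 blocks was set against that of its 3 cord libraries, and the 4 differences per gene were tested with limma. A gene is called higher or lower where the Benjamini-Hochberg adjusted p was under 0.05 and the difference was at least 2-fold (1 on the log2 scale). By this rule 1227 of 15210 genes (8.07%) were higher in the blocks and 1824 (12.0%) were lower, and the median difference of all genes was -0.18. These shares, 8.07% higher and 12.0% lower, are the background for each count of called list members below. In 1567 genes (10.3%) all 8 blocks lay above all 12 cord libraries, and in 2554 (16.8%) they lay below. The 37 gene lists used below held 633 genes, of which 612 were in the table and 551 passed the filter of 1 FPKM in any library; counts refer to those that passed, and a member that passed through its high tissue alone is bound to differ. In such bulk tissue, fewer cells of a type and less RNA per cell cannot be told apart. The value after ± on a log2 difference is limma's moderated SE, which also draws on the spread of all other genes. Shifts of gene ratios carry a plain SD over 4 animals. The genes with the largest differences toward the blocks included 3 potassium channel genes beside synaptic and transcription factor genes. The channel genes were Kcnh3 (7.15 ± 0.12), Kcnj4 (6.84 ± 0.17) and Kcnv1 (6.13 ± 0.13). Toward the cord, the genes with the largest differences included the glycine receptor gene Glra1 and Uts2, which encodes the peptide urotensin 2.

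**Figure D1:**
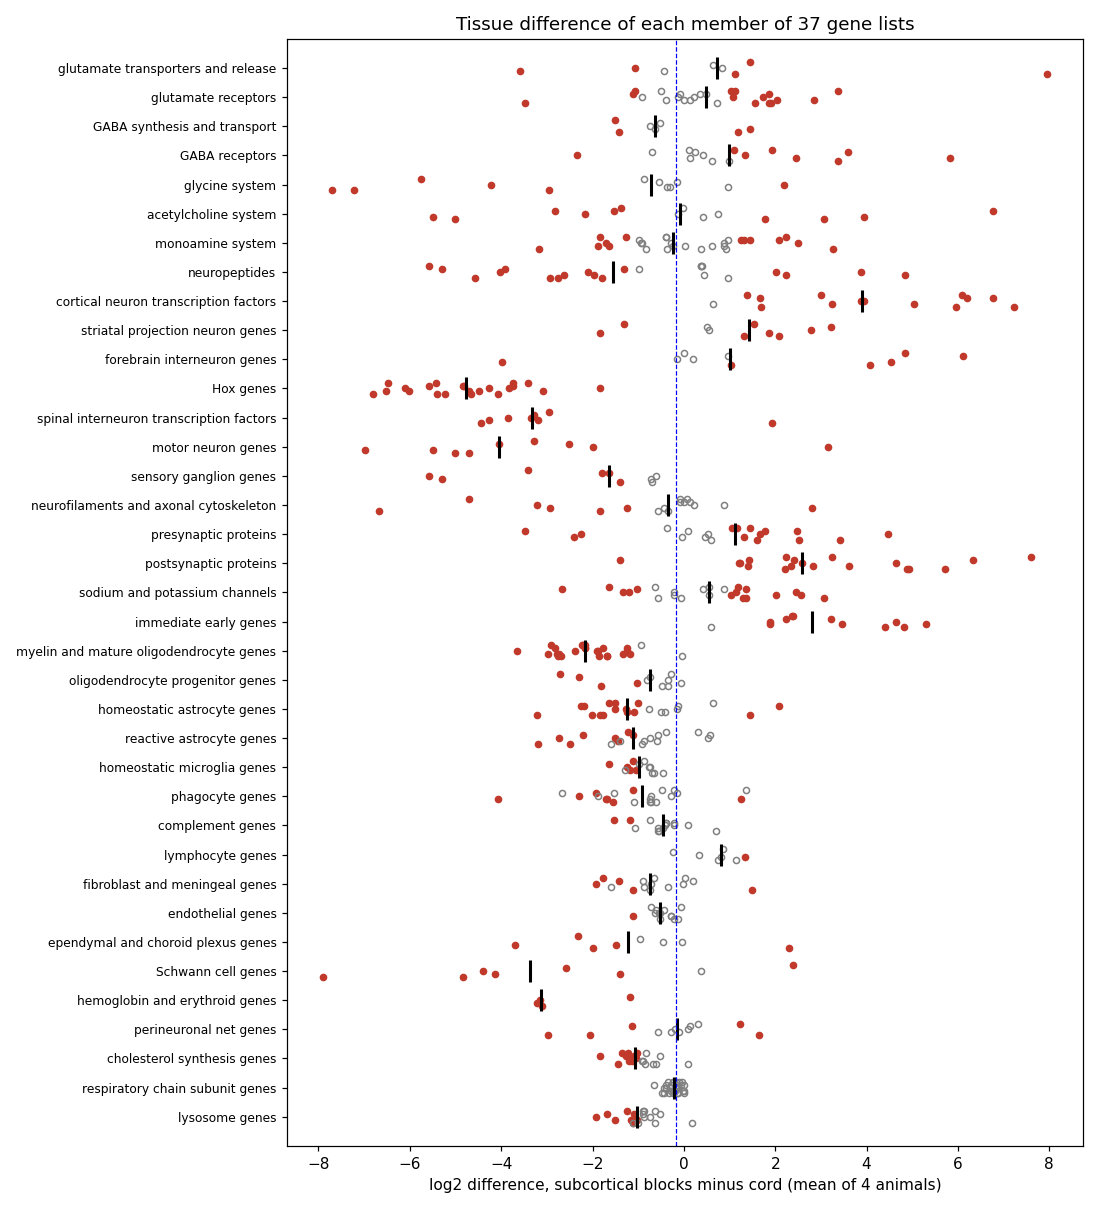
Log2 difference of each kept gene in 37 lists, as the mean of 4 animals (x axis), with filled red points for called genes, open gray points for the rest, a black bar at the list's median and a dashed line at the median of all genes, -0.18. Cortical transcription factors, postsynaptic proteins and immediate early genes lie to the right, and Hox, motor neuron, Schwann cell and myelin genes to the left.

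Glutamate genes differed by family member rather than as a block of genes. Slc17a6 had values of 1.12, 2.18 and 3.47 FPKM (lowest, median, highest) in the blocks and 17.6, 25.6 and 45 FPKM in the cord, a difference of -3.58 ± 0.10 (limma adjusted p = 2.6e-05), with no overlap of the libraries. Within each library, Slc17a7 exceeded Slc17a6 in 8 of 8 blocks and in 0 of 12 cord libraries, and the log2 ratio shifted by 11.5 ± 0.43 (SD over 4 animals), or by 11.8 ± 0.31 without region 3 of control animal 2. Of 25 glutamate receptor genes, 11 were higher in the blocks and 3 lower. Grin2b, an NMDA receptor subunit, differed by 2.85 ± 0.11, and the AMPA receptor subunit Gria2 by 2.04 ± 0.09. Gria4, another AMPA subunit, did not pass the test, with values of 18.2, 28.6 and 32.8 FPKM in the blocks and 22.1, 30.7 and 39.1 FPKM in the cord. Lower in the blocks were Grin2d, Grik4 and Grin3b, an NMDA subunit gene that differed by -3.47 ± 0.21. The astrocyte glutamate transporter genes both lay toward the blocks: Slc1a3 was called (1.44 ± 0.08), and Slc1a2 had 298, 393 and 465 FPKM against 217, 245 and 312 FPKM, under the 2-fold limit.

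Genes of GABA synthesis were called higher in the blocks, a call that depended on the regions compared, and the gene of vesicular loading was not. Gad1 and Gad2, the enzymes that make GABA, differed by 1.19 ± 0.08 and 1.44 ± 0.11, while Slc32a1, which loads GABA and glycine into vesicles, had 8.77, 12.1 and 14.1 FPKM in the blocks and 14.3, 19.7 and 26 FPKM in the cord and missed the 2-fold limit. Without region 4, Gad1 differed by 0.98 and was not called, and with region 2 set against region 3 alone neither gene was called, at 0.78 for Gad1 and 0.68 for Gad2. Of 15 GABA receptor genes, 7 were higher and 1 lower. Gabrd, the delta subunit of receptors outside synapses, had 8.46, 14.8 and 22.5 FPKM in the blocks and 0.162, 0.249 and 0.522 FPKM in the cord. Gabra5, an alpha subunit gene, did not pass the test at 0.12 ± 0.07. The astrocyte GABA transporter gene Slc6a11 was lower in the blocks, at -1.51 ± 0.10.

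Glycine genes lay toward the cord, with 5 of 12 called lower and 1 higher (2 higher without stimulated animal 2 or without region 3 of control animal 2). Slc6a5, the glycine transporter of inhibitory neurons, had values of 0.169, 0.414 and 4.1 FPKM in the blocks and 26.1, 32.4 and 40 FPKM in the cord. Its highest block values, from 0.576 to 4.1 FPKM, were the 4 libraries of region 1. Slc6a9, the other glycine transporter gene, differed by -2.95 ± 0.08. The receptor subunit genes split: Glra1 and Glra3 were lower in the blocks (-4.22 ± 0.13 for Glra3). Glra2 (-0.36 ± 0.10) passed the test but was under the 2-fold limit, and Glrb (-0.16 ± 0.09) did not pass the test. Gldc, a subunit of the enzyme complex that degrades glycine, was the member called higher (2.19 ± 0.07).

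Cholinergic synthesis lay with the cord and several muscarinic receptors with the blocks. Of 14 acetylcholine genes, 4 were higher and 6 lower. Chat, which makes acetylcholine, had 0.176, 0.221 and 0.522 FPKM in the blocks and 4.86, 7.63 and 12.7 FPKM in the cord, and Slc5a7, which takes up choline, differed by -5.49 ± 0.15. Chrm1, the M1 muscarinic receptor gene, had 12.5, 22.3 and 23.7 FPKM in the blocks and 0.1, 0.204 and 0.264 FPKM in the cord, and Chrm2 went the other way, at -1.37 ± 0.06. Neither pair of groups overlapped.

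Of 29 genes of monoamine synthesis, transport and reception, 7 were higher and 6 lower (9 lower without stimulated animal 2). Of the 29, 2 were at 0.1 in every block and so could not be higher. On log2(FPKM + 1), 6 were higher and 2 lower. Among serotonin receptors, Htr2c was lower in the blocks (2.37, 2.83 and 4.17 against 19.2, 26.7 and 36.4 FPKM) and Htr2a higher (7.18, 8.69 and 10.4 against 3.02, 3.45 and 5.1 FPKM). Htr6 differed by 3.27 ± 0.18. The dopamine receptor gene Drd1 was higher (2.08 ± 0.17) and Drd2 lower (-1.84 ± 0.34). Without region 1 of stimulated animal 1, the library high in striatal genes, Drd2 differed by -2.22 and Drd1 by 1.83. Tph2, Dbh and Th, the synthesis enzymes of serotonin, noradrenaline and catecholamines, had cord medians of 0.217, 0.1 and 0.12 FPKM and were not called. Their highest cord values were 3.26, 2.47 and 1.97 FPKM. The log2 differences were 0.96 for Tph2, -0.92 for Dbh and 0.92 for Th. Of these, only Th passed the test, under the 2-fold limit. With the floor at 0.5 FPKM, Tph2 and Th changed sign.

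**Figure D2:**
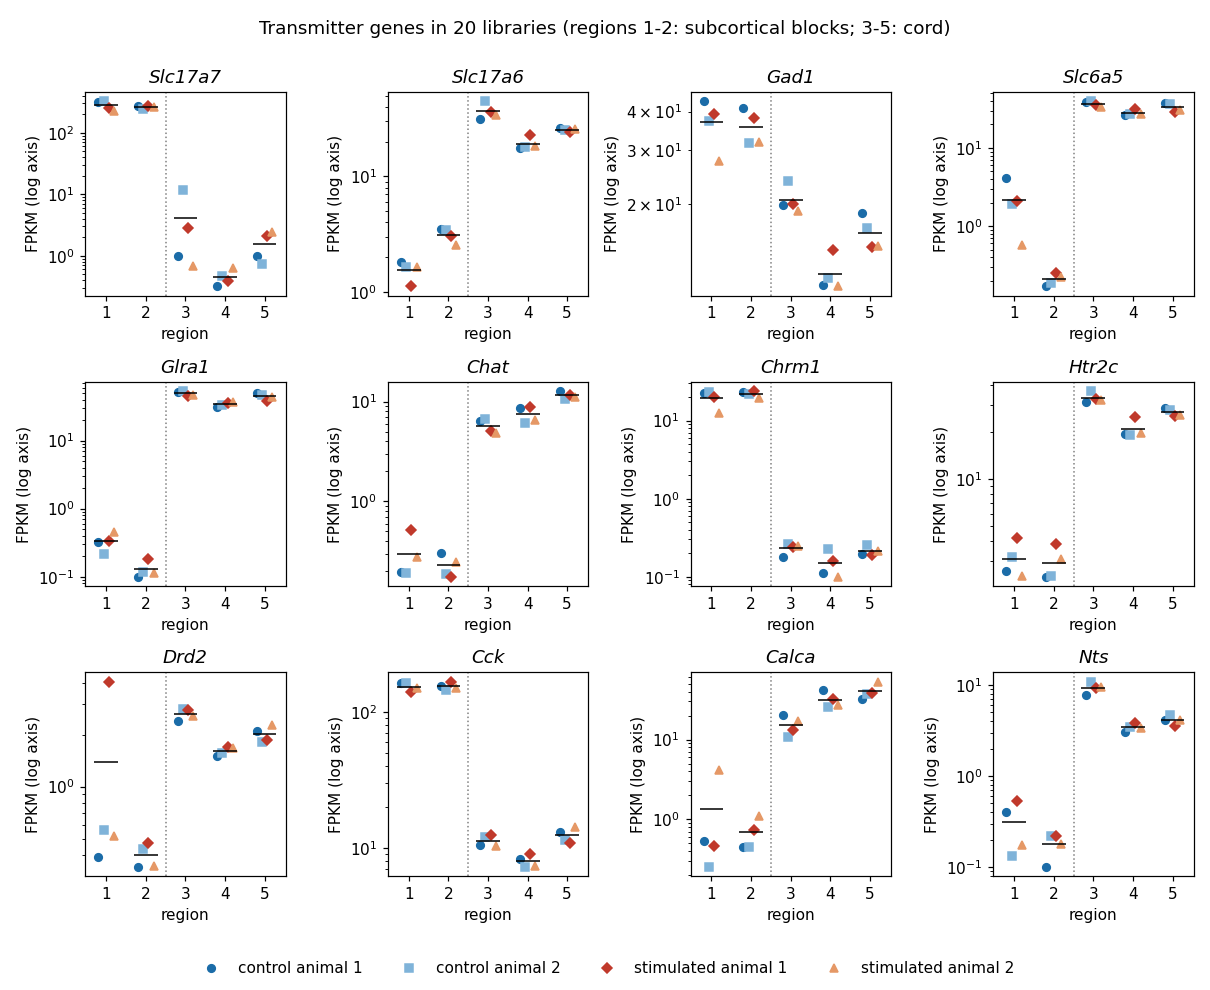
FPKM (log axis) of 12 transmitter genes by region, with a point for each animal and a line at each region's mean. Slc17a7, Chrm1 and Cck are high in regions 1 and 2, while Slc17a6, Slc6a5, Glra1, Chat, Htr2c, Calca and Nts are high in regions 3 to 5.

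Neuropeptide genes were lower in the blocks in 12 of 22 cases and higher in 4. Cck, a peptide of many cortical neurons, had 139, 152 and 166 FPKM in the blocks and 7.25, 10.7 and 14.3 FPKM in the cord. Vip, a marker of a class of cortical interneurons, differed by 4.83 ± 0.21. Calca, which encodes the sensory peptide CGRP, had 0.252, 0.495 and 4.18 FPKM in the blocks and 10.6, 29.6 and 53.1 FPKM in the cord, and its paralog Calcb differed by -5.58 ± 0.35. The neurotensin gene Nts (-4.56 ± 0.21), the tachykinin gene Tac1 (-1.78 ± 0.19, or -1.91 without region 1 of stimulated animal 1) and the enkephalin gene Penk (-1.32 ± 0.15) were also lower. Sst, the somatostatin gene, fell just under the 2-fold limit at 0.97 ± 0.09.

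Genes that mark forebrain neurons were mostly higher in the blocks. Of 15 cortical transcription factor genes, 14 were higher in the blocks and none lower, with a median difference of 3.89. Of the 15, 4 were at 0.1 in every cord library, so that these passed the filter through the blocks alone and had to be higher. Fezf2, a factor of deep-layer neurons, had 5.2, 6.17 and 8.54 FPKM in the blocks and was at 0.1 in every cord library. Rorb, a gene of layer 4 that the cord also expressed at 5.92, 7.01 and 7.91 FPKM, was the member not called. Of 10 forebrain interneuron genes, 5 were higher and Calb2 was lower (-3.99 ± 0.06), and Pvalb, a gene of fast-spiking interneurons, had 53.5, 78.4 and 95.4 FPKM in the blocks and 40.5, 74.6 and 109 FPKM in the cord. Striatal genes gave 6 higher and 2 lower of 10, and 5 higher without region 1 of stimulated animal 1. Of the interneuron and striatal genes, 2 and 1 were at 0.1 in every cord library.

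Spinal neuron genes were mostly lower in the blocks. Of 8 spinal interneuron transcription factors, 7 were lower. Among them were Lbx1 and Pax2, at 0.1 in every block, with 1.25, 2.12 and 4.33 and 1.39, 1.82 and 2.97 FPKM in the cord. Prdm8, which the cortex also expresses, was higher (1.92 ± 0.11). Of the 8, 5 were at 0.1 in every block, so that these passed the filter through the cord alone and had to be lower. Of 9 motor neuron genes, 8 were lower, 1 of them at 0.1 in every block. With the floor at 0.5 FPKM, 4 of the spinal interneuron factors and 5 of the motor neuron genes were lower. Chodl, a gene of fast motor neurons, had 0.149, 0.215 and 0.257 FPKM in the blocks and 13.1, 24.3 and 45.8 FPKM in the cord, and Prph, an intermediate filament of motor and sensory neurons, differed by -4.70 ± 0.08. Mmp9, a protease of fast motor neurons and of many inflammatory cells, was higher (3.15 ± 0.30), with overlapping libraries. Of 9 sensory ganglion genes, 6 were lower, or 4 with the floor at 0.5 FPKM. The sensory sodium channels Scn10a and Scn11a were at 0.1 in every block and in most cord libraries.

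Synaptic genes were mostly higher in the blocks, with opposite directions within some families. Of 19 postsynaptic genes, 18 were higher in the blocks, with a median of 2.59, and Homer3 was lower (-1.40 ± 0.14). Nrgn, a calmodulin-binding protein of dendrites, had 155, 247 and 283 FPKM in the blocks and 2.61, 4.34 and 6.69 FPKM in the cord, and Camk2a, a kinase subunit of synaptic plasticity, had 108, 209.5 and 265 and 4.12, 6.21 and 10.6 FPKM. Of 20 presynaptic genes, 11 were higher and 3 lower. Syt1, the fast calcium sensor of forebrain synapses, had 199, 271 and 308 FPKM in the blocks and 16.6, 23 and 49.8 FPKM in the cord, while Syt2, its counterpart in fast hindbrain and spinal synapses, had 4.71, 7.74 and 11.9 and 32.4, 44.6 and 53.6 FPKM. The vesicle proteins Vamp2 (1.79 ± 0.09) and Vamp1 (-2.26 ± 0.11) moved in opposite directions. Of separate families, the vesicle glycoprotein gene Sv2c was lower (-3.49 ± 0.10) and the syntaxin gene Stx1a higher (4.46 ± 0.06). Of 9 pairs of related genes compared within libraries, 8 had ratios that did not overlap between blocks and cord. The pairs were a chosen set, and the share of such ratios over other pairs was not computed, so this count is a description only. Among all single genes, 10.3% lay wholly above and 16.8% wholly below. The log2 ratio shifted by 4.04 ± 0.23 for Vamp2 over Vamp1 and by 5.81 ± 0.18 for Syt1 over Syt2 (SD over 4 animals). The ratio of Gad2 over Gad1 overlapped, with a shift of 0.25 ± 0.12.

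**Figure D3:**
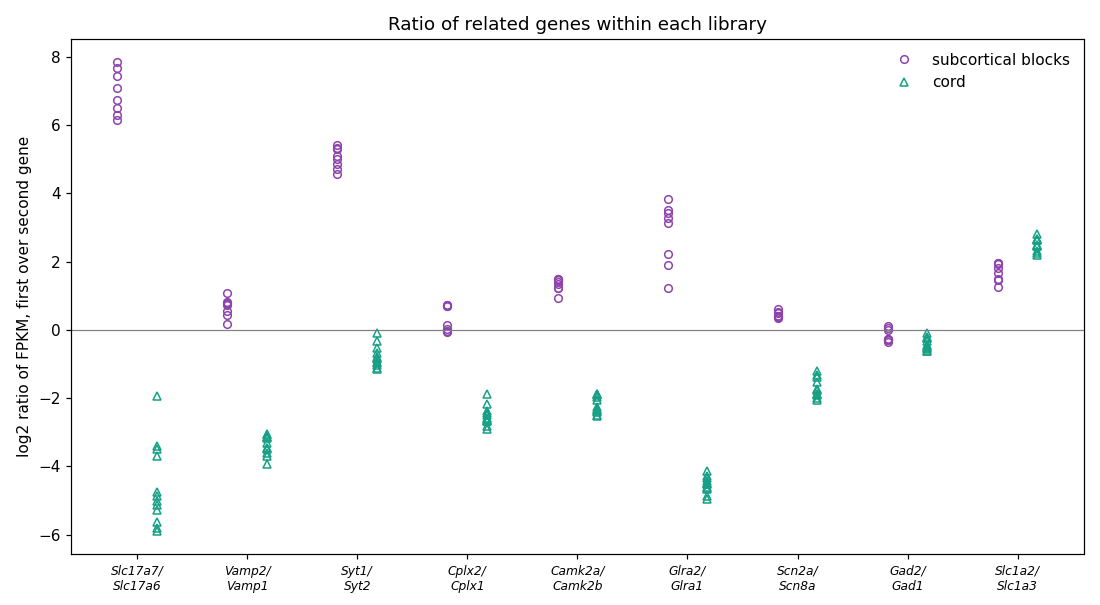
Log2 ratio of FPKM (y axis) of the first gene over the second for 9 pairs, with circles for the 8 subcortical blocks and triangles for the 12 cord libraries. The groups are apart for 8 pairs and overlap for Gad2 over Gad1.

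Axonal and channel genes divided between the tissues. The 3 neurofilament genes, which set the caliber of large axons, were lower in the blocks: Nefl by -1.83 ± 0.06, Nefm by -2.94 ± 0.04 and Nefh by -3.22 ± 0.08. Ina, a filament gene shared by both tissues, had 19.9, 26.8 and 32.5 FPKM in the blocks and 19, 26.6 and 36.9 FPKM in the cord. Sncg, the gamma synuclein gene, had 0.737, 1.49 and 2.6 FPKM in the blocks and 102, 142 and 263 FPKM in the cord, with no overlap of the libraries. Of 24 sodium and potassium channel genes, 10 were higher and 5 lower. Scn2a, a sodium channel of unmyelinated axons and immature nodes, differed by 2.57 ± 0.07, and Scn8a, the channel of mature nodes, by 0.42 ± 0.07, under the 2-fold limit. Kcnq5 was higher (3.06 ± 0.10) and Kcng4 lower (-2.66 ± 0.07).

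Immediate early genes, which neurons switch on within minutes of activity, were higher in the blocks in 11 of 12 cases, with a median of 2.80. Arc, a regulator of synaptic strength, had 16.6, 39 and 67.9 FPKM in the blocks and 1.15, 1.61 and 2.15 FPKM in the cord, and the transcription factor Egr1 had 14.3, 22 and 30.8 and 1.66, 2.38 and 3.05 FPKM. Fos was the gene not called: it had 3.58, 9.12 and 59.3 FPKM in the blocks and 4.74, 7 and 9.57 FPKM in the cord, and its difference lay between -0.62 and 0.33 in 3 animals and was 2.36 in stimulated animal 2. In that animal region 1 also had the highest Npas4 (18.4 FPKM) and Junb (103 FPKM). The serum response element known as the CArG box, which responds to growth factor and calcium signals, was searched in RefSeq promoter windows of build GRCr8, from 250 bases before to 50 after each start. On either strand it was found in 2 of the 14 windows of 9 immediate early genes, those of Egr1 and Egr2, and in 1.64% of 33469 promoter windows. Only 9 of the 13 listed genes had a window, and several of the 14 windows belonged to Bdnf. Fos, Arc, Egr3 and Nr4a3 had none and were not searched. The half-site TGACG of the cAMP response element, on either strand, was found in 7 of the 14 and in 21.2% of all windows. A stretch of the Egr2 promoter (GRCr8, chr20:21054472-21054591, minus strand, from 150 to 31 bases before the start) is shown because the box lies in it, in capitals.
Egr2: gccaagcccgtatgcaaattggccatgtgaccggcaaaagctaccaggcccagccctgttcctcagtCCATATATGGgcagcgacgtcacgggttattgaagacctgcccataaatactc

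**Figure D4:**
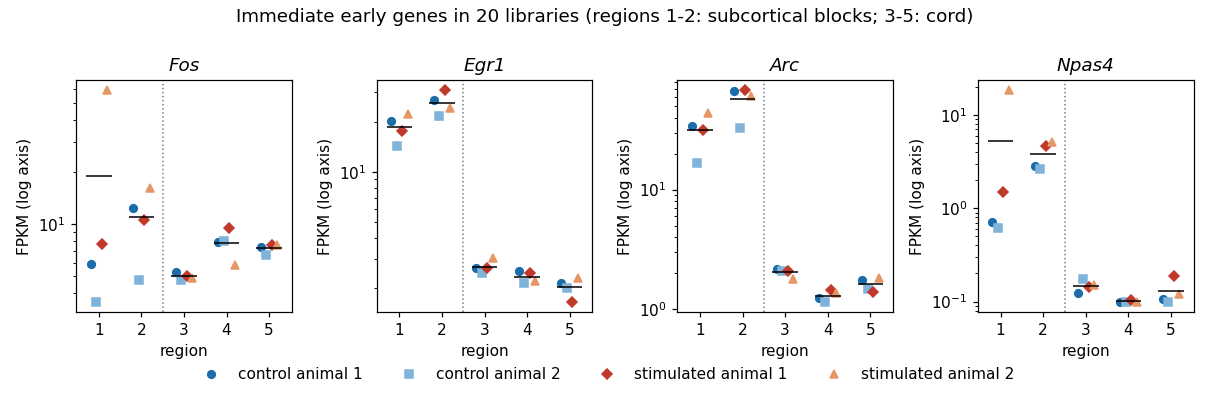
FPKM (log axis) of 4 immediate early genes by region, with a point for each animal and a line at each region's mean. Egr1, Arc and Npas4 are above every cord library in all 8 blocks, and Fos overlaps between the tissues, with its highest value in region 1 of stimulated animal 2 (59.3 FPKM).

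Among the lists of oligodendrocyte, astrocyte and microglial genes, myelin genes had the largest median difference. Mog, an outer myelin protein, had 12.7, 22.4 and 45.8 FPKM in the blocks and 93.1, 104 and 120.0 FPKM in the cord, a difference of -2.16 ± 0.08. In the blocks, Mbp had a mean of 979.7 FPKM in region 1 and 556 FPKM in region 2. Klk6, a protease of oligodendrocytes, and Hapln2, a matrix linker of nodes, differed by -3.64 ± 0.31 and -2.98 ± 0.09. The 2 genes of the list that were not called were Tspan2 (-0.93 ± 0.05) and Car2 (-0.04 ± 0.13). Progenitor genes differed less: 4 of 11 were lower, including Enpp6 (-2.71 ± 0.24), a gene of newly forming oligodendrocytes, while Pdgfra, the defining progenitor receptor, had 6.85, 9.78 and 21 FPKM in the blocks and 11.4, 13.4 and 17.9 FPKM in the cord and was not called.

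Astrocyte genes were more often lower than higher in the blocks. Of 21 homeostatic genes, 13 were lower in the blocks and 2 higher, the glutamate transporter gene Slc1a3 and Chrdl1 (2.09 ± 0.20), a secreted factor of cortical astrocytes. Aqp4, the water channel of endfeet, had 40.1, 87.4 and 128 FPKM in the blocks and 239, 322 and 369.6 FPKM in the cord, and the potassium channels Kcnj10 and Kcnj16 differed by -1.64 ± 0.10 and -3.22 ± 0.16. Glul, the glutamine synthetase gene, was not called (-0.13 ± 0.11). Of 19 reactive astrocyte genes, 8 were lower, 14 without stimulated animal 2 and 12 without region 1. Gfap, the filament of reactive astrocytes, had 70.1, 382 and 884 FPKM in the blocks and 823, 1663 and 2159 FPKM in the cord. Its difference lay between -3.16 and -2.95 in 3 animals and was -0.87 in stimulated animal 2.

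Microglial and immune genes depended on the same animal and on region 1. With all animals, 13.3% of complement genes were lower, where 12.0% of all genes were. Without stimulated animal 2, the number called lower in the blocks went from 5 to 10 of 13 homeostatic microglia genes, from 7 to 16 of 22 phagocyte genes and from 2 to 9 of 15 complement genes. Without 1 of the other animals these counts were 3 to 4, 5 and 0, and for complement genes 1 without region 1 of stimulated animal 1 or region 3 of control animal 2. Without region 1 of all animals, the 3 counts were 8, 17 and 3. Lgals3, a lectin of phagocytes, had 0.62, 15.2 and 67.8 FPKM in the blocks and 42.5, 171 and 271 FPKM in the cord and was lower in all 4 animals. Spp1, the osteopontin gene, had 0.698, 18.8 and 593 FPKM in the blocks and 52.3, 94.3 and 226 FPKM in the cord, and C3, the central complement component, had 1.72, 12.5 and 182 and 10.3, 29.7 and 51.1 FPKM. Both were higher in the blocks in stimulated animal 2 (by 1.48 and 2.23) and lower in the other 3 animals, and neither was called. Mmp12, a macrophage elastase, was called higher (1.24 ± 0.20), but without region 1 it differed by -1.47, and the call was also lost without region 1 of stimulated animal 1. Of 7 lymphocyte genes, Lck was called higher, a call that was lost in 11 of 19 alternatives, among them leaving out any of the 4 animals.

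**Figure D5:**
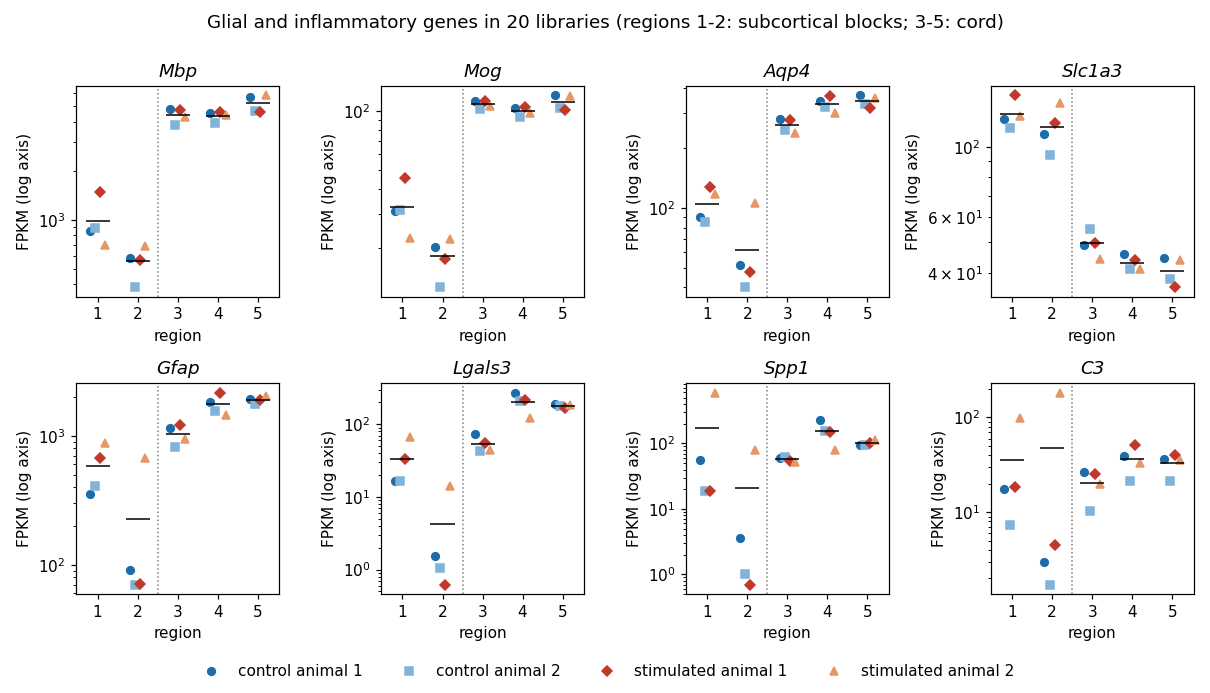
FPKM (log axis) of 8 glial and inflammatory genes by region, with a point for each animal and a line at each region's mean. Mbp, Mog and Aqp4 are lower in regions 1 and 2 and Slc1a3 higher, while Gfap, Spp1 and C3 in region 2 are far higher in stimulated animal 2 than in the other 3 animals.

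Schwann cell genes, which mark peripheral myelin, were lower in the blocks in 6 of 8 cases, and among them Prx, a protein of the peripheral myelin sheath, differed by -4.13 ± 0.17. Of the 8, 1 was at 0.1 in every block, and with the floor at 0.5 FPKM 5 were lower. Egr2, a factor of myelinating Schwann cells that is also an immediate early gene, was the member called higher (2.39 ± 0.29). All 4 hemoglobin and erythroid genes were lower, 3 of them without control animal 1, control animal 2 or stimulated animal 1, or without region 3 of control animal 2, since Alas2, the erythroid heme synthesis enzyme, then lost its call. The hemoglobin gene Hbb was among them, with Hbb at 0.541, 2.24 and 3.24 FPKM in the blocks and 5.53, 13 and 62 FPKM in the cord. Of 13 endothelial genes, Mfsd2a was lower (-1.11 ± 0.09) and the other 12 were not called. That is 7.69% lower, where 12.0% of all genes were. Fibroblast and meningeal genes gave 4 lower and 1 higher of 15. They gave 9 lower and 0 higher without stimulated animal 2, and 2 lower and 0 higher without any 1 of the other animals. Without region 1, 10 were lower and 0 higher. Postn, the member called higher, lost its call without any 1 of the animals. The call was also lost without region 1 of stimulated animal 1 or region 3 of control animal 2, which left 0 higher. Postn had 33.4 FPKM in region 1 of stimulated animal 2 and at most 3.01 FPKM in the other 7 blocks. Ependymal and choroid plexus genes gave 4 lower and 1 higher of 8, and 0 higher without stimulated animal 2, stimulated animal 1 or control animal 1.

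Matrix and metabolic genes differed by pathway. Of 12 perineuronal net genes, 2 were higher (16.7%) and 3 lower (25.0%), where 8.07% of all genes were higher and 12.0% lower. Among the lower genes was Acan, the aggrecan core protein, at -2.07 ± 0.16. Of 21 cholesterol synthesis genes, 13 were lower in the blocks and 0 higher, with a median of -1.07. In 16 of the 21, all 8 blocks lay below all 12 cord libraries, as in 16.8% of all genes tested. The count of lower genes depended on the regions compared: it was 4 without region 1 and 6 with region 2 set against region 3 alone. Lysosome genes were lower in 10 of 21 cases, in 16 without stimulated animal 2, in 17 without region 1 and in 6 without control animal 1. Respiratory chain genes gave 0 calls of 31 in limma at the 2-fold limit. At an adjusted p under 0.05 of any size, 18 of them were lower and 0 higher, where 41.8% of all genes were lower and 23.4% higher.

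Whether the difference between tissues depended on stimulation was tested on the same 4 differences, 2 stimulated against 2 control. No gene passed in limma (0 genes at an adjusted p under 0.05, 512 at an unadjusted p under 0.05). Without stimulated animal 1, which left stimulated animal 2 alone against the controls, 1700 genes passed. In that fit the spread came from the 2 control animals, and the lone animal is assumed to vary like them, so the count describes 1 animal and is not evidence of dependence on stimulation. With 2 animals against 2, a lack of calls does not show that stimulation had no influence.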

How the data were processed

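Total RNA was depleted of ribosomal RNA and sequenced from 5 regions of 4 rats. Per the labels, the authors used TopHat2 2.1.0, Cufflinks 2.2.1 and MultiQC 1.6, and aligned to Rnor6. The authors deposited FPKM values per gene, with 0.1 as the lowest value. The annotation version is not given in the sources used here, and 0 columns lacked a sample. Values were log2-transformed at a floor of 0.1, and 15210 of 30443 genes, those that reached 1 FPKM in some library, were kept. limma 3.58.1 in R 4.3.3 (eBayes with trend) was fitted to 4 differences within animals, and p-values were adjusted over all genes by the Benjamini-Hochberg method. An exact test of 4 signs could not go below p = 0.125, so only model p-values are used. Same-numbered libraries of a group come from 1 animal per the labels, and their deviations correlated by 0.59 between regions 1 and 2 by 0.028 to 0.21 among regions 3 to 5 and by -0.0332 to 0.13 between a block and a cord region. The fits were tested on simulated data.

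The comparison and the 37 gene lists were chosen with earlier results of these data known. A rule named 188 genes: the core genes of each list, its member with the largest called difference in each direction (mean of at least 1 FPKM in a tissue), and the 10 called genes with the largest difference in each direction over all genes (no overlap of libraries, mean of at least 5 FPKM). A further 42 genes were chosen after their values were seen, among them Tph2, Dbh, Th, Rorb, Nts, Tac1, Fezf2, Npas4, Junb, Tspan2, Car2, Lck and Hbb, and Grin2d and Grik4 are named to complete a count. Changes under 19 alternative fits and values that stand apart are given for 218 of these 230 genes, whether or not the report discusses them, and 12 genes are not reported here. For symbols listed repeatedly, the row of highest mean stands for the gene. Genes that overlap or share reads with close copies, such as the hemoglobin genes, are uncertain. Promoter windows came from RefSeq (GRCr8), which is not the build of the files, and were used for sequence only. Figures were drawn with matplotlib 3.10.9.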

Additional observations from a re-analysis of the deposited data

Results flagged for a closer look

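In 8 blocks or 4 differences, a value was set aside for a closer look where its gap to the nearest of the others exceeded Dixon's 95% limit. FPKM values were compared on the log2 scale and are listed below in FPKM. Of 436 such groups, 67 had a value of this kind, where chance gives about 5% in independent, normally spread groups. These groups share genes and animals, and some genes were chosen after their values were seen. The count therefore cannot be set against that 5%. Values of control animal 2 that stood apart, as log2 differences among the 4 animals, were -2.87 for Lmx1b and 3.94 for Arc. Values of control animal 2, region 2 that stood apart, in FPKM among the 8 blocks, were 70.2 for Sst. Values of stimulated animal 1 that stood apart, as log2 differences among the 4 animals, were -2.34 for Mbp, -0.44 for Cldn5 and -2.44 for Alas2. Values of stimulated animal 1, region 1 that stood apart, in FPKM among the 8 blocks, were 0.867 for Slc5a7, 6.64 for Drd1, 4.05 for Drd2, 64.5 for Ppp1r1b, 0.212 for Isl1, 0.279 for P2rx3, 0.142 for Tmem212, 12.8 for Tac1 and 11 for Rgs9. Values of stimulated animal 1, region 2 that stood apart, in FPKM among the 8 blocks, were 0.337 for Tph2. Values of stimulated animal 2 that stood apart, as log2 differences among the 4 animals, were 1.52 for Grin2a, 3.64 for Lhx6, 4.40 for Camk2a, -0.76 for Mfge8, -0.87 for Gfap, 0.0386 for Vim, 1.16 for Timp1, 0.056 for P2ry12, 0.54 for Csf1r and 1.06 for Aif1. Further values of stimulated animal 2 that stood apart, as log2 differences among the 4 animals, were 1.46 for Cd68, 1.54 for C1qa, 1.54 for C1qb, 2.23 for C3, 3.47 for Cd3e, 3.14 for Cd79b, 0.90 for Col1a1, -0.0124 for Slc2a1, -0.30 for Vcan and -1.86 for Slc6a11. Further values of stimulated animal 2 that stood apart, as log2 differences among the 4 animals, were 4.26 for Stx1a, -0.65 for Hspb1, -1.70 for Lgals3, 3.35 for Postn and 6.05 for Itpka. Values of stimulated animal 2, region 1 that stood apart, in FPKM among the 8 blocks, were 59.1 for Gria2, 18.2 for Gria4, 15.6 for Grin2a, 29.5 for Glrb, 12.5 for Chrm1, 2.18 for Emx1, 37.4 for Vamp1, 108 for Camk2a, 57.2 for Camk2b and 53.8 for Dlg4. Further values of stimulated animal 2, region 1 that stood apart, in FPKM among the 8 blocks, were 155 for Nrgn, 17.4 for Kcna2, 3.37 for Aldh1l1, 12.5 for Agt, 55.8 for Slc2a1, 16.1 for Vcan, 62.9 for Sdha, 8.38 for Vip, 89.6 for Ddn and 33.4 for Postn. Further values of stimulated animal 2, region 1 that stood apart, in FPKM among the 8 blocks, were 47.6 for Cspg5, 9.71 for Kcnj4, 0.19 for Uts2, 14.1 for Gabra4, 6.2 for Chrm3 and 368 for Snap25.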

How the results depend on the processing

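The 4 differences per gene already hold the animal, since each difference is taken within 1 rat. As 20 libraries with a mean per region and no replicate block, 1246 genes were higher and 1931 lower, and with the animal as a block of those libraries 1252 and 1943. On log2(FPKM + 1), 804 genes were higher and 930 lower, because low genes shrink toward 0 on that scale. With no limit on size, 3558 were higher and 6362 lower. Quantile normalization moved the median of all genes from -0.18 to -0.045 and the share of higher genes among the calls from 40.2% to 51.2%. Over the animals left out in turn, 1177 to 1318 genes were higher and 1611 to 2472 lower, and the number of genes whose difference depended on stimulation ran from 0 to 1700, the latter without stimulated animal 1. In all, 218 genes were followed through 19 alternatives. Of 158 called, 129 were called in each alternative that measured them, 29 lost the call in at least 1, and 1, Mmp12, changed sign. Of 60 not called, 23 were called somewhere and 18 changed sign somewhere. The causes were not tested.

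With the floor at 0.5 FPKM, the log2 difference changed sign to -0.0945 for Tph2 and -0.24 for Th. After quantile normalization, the log2 difference changed sign to 0.00948 for Gria4, 0.13 for Glul, 0.52 for Apoe, 0.17 for Rsph1, 0.12 for Cox4i1, 0.36 for Atp5b and 0.0611 for Car2. After upper-quartile scaling, the log2 difference changed sign to 0.0313 for Rsph1, 0.0237 for Cox4i1, 0.0737 for Atp5b and 0.0352 for Car2. Without region 4, the log2 difference changed sign to -0.0525 for Gabra5, -0.0389 for Pvalb and -0.16 for Ina. Without region 1, the log2 difference changed sign to 0.0281 for Gria4, -0.0142 for Adora2a, -0.0116 for Ina, 0.18 for Mfge8, -1.47 for Mmp12, -1.41 for Cd8a and -0.41 for Ncan. With region 2 against region 3 alone, the log2 difference changed sign to -0.19 for Adora2a, -0.00213 for Pvalb, -0.31 for Ina, 0.19 for Mfge8, -0.41 for Tph2 and -1.02 for Th. In the control animals alone, the log2 difference changed sign to 0.014 for Gria4, -0.14 for Fos, 0.0847 for Mfge8, -0.84 for Cd8a and -0.27 for Ncan. Without region 1 of stimulated animal 1, the log2 difference changed sign to -0.28 for Cd8a and -0.0331 for Ncan. Without region 3 of control animal 2, the log2 difference changed sign to 0.0267 for Atp5b and 0.0215 for Car2. Leaving out each animal in turn, the differences ran from -0.0536 to 0.0716 for Ina, from -0.0407 to 0.0277 for Atp5b, from -0.14 to 0.11 for Car2, from -0.15 to 0.00579 for Gria4, from -0.22 to 0.0666 for Mfge8, from -0.79 to 0.86 for Cd8a, from -0.056 to 1.05 for Cd79b and from -0.21 to 0.25 for Ncan.

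FPKM values carry no read numbers, so counting error at low values is unknown, and 4 animals limit the precision. The 3 alternatives that leave out a library or keep the control animals alone, and the gene ratios without region 3 of control animal 2, were chosen after seeing the data.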
